A study of Macaca fascicularis with 10 samples.

Results

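The proteasome genes were taken as the genes whose symbol in the array annotation begins with PSMA to PSMG followed by a number. The rule found 33 genes among 14132 with a probe set that names 1 gene only. Of these, 32 encode proteasome subunits, regulators or assembly factors, and PSMC3IP, which encodes a meiotic recombination factor, is kept apart. A probe set is the group of array oligonucleotides that reports 1 transcript, and where several named a gene, the one with the highest mean log2 signal over the 10 arrays was used. Because 8 of the 10 arrays are stem cell arrays, that mean favours probe sets bright in stem cells. Choosing by the fibroblast arrays alone, an alternative added after seeing the data, changed the probe set of 1 proteasome gene, PSMA7. Of the 32 genes, 31 were tested, all of them above the array's median signal on all 10 arrays. The remaining gene, PSMB11 of the thymus-specific proteasome, lay between 10.8 and 62.7 and was not tested. Of the 48 genes in the subunit lists used here, 16 had no probe set naming them alone in the annotation used here, among them PSMB9, PSME1, PSME4 and PSMD10.

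The series measured total RNA of Macaca fascicularis (cynomolgus monkey) cells on Affymetrix Rhesus Macaque arrays, 1 array per sample. The PG-haESC group, haploid embryonic stem cells from parthenogenetic blastocysts, has 5 arrays: line MPH1 at passages 8, 11, 7 and 9 (replicates 1 to 4) and line MPH2 at passage 4 (replicate 5). The labels give the 4 MPH1 arrays 2 sample codes, M1 (replicates 1 and 2) and M2 (replicates 3 and 4). The ICSI ESC group, diploid embryonic stem cells from embryos made by intracytoplasmic sperm injection, has 3 arrays of lines MES1 at passage 12, MES2 at passage 4 and MES3 at passage 4 (replicates 1 to 3). The fibroblast group, diploid female somatic cells labelled MF, has 2 arrays at passages 14 and 15, which carry 1 code and may share a donor. Per the labels the stem cells grew on a feeder layer in medium with Y27635 and Thiazovivin. The species of that layer was not stated. Nothing in the labels says that arrays of 1 line came from separate derivations, so the p-values measure the spread between these arrays, part of which may be technical.

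The proteasome is the large protease that degrades ubiquitin-tagged proteins in the cytosol and nucleus. Its 20S core is a barrel of alpha rings, which gate the entrance, around beta rings, in which PSMB5, PSMB6 and PSMB7 carry the cutting sites. The 19S particle binds ubiquitin chains and unfolds the substrate with a ring of ATPases. Interferon exchanges the cutting subunits for PSMB8, PSMB10 and PSMB9 (the immunoproteasome), which is known for making peptides for MHC class I, and human embryonic stem cells are known for high proteasome activity.

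The pluripotency markers checked the stem cell labels: their summed signal was between 58311 and 87710.1 on PG-haESC arrays, between 53489 and 70625 on ICSI ESC arrays and between 613 and 729 on fibroblast arrays. On the fibroblast arrays, the summed fibroblast markers reached 176806 and 177402, against 5298 to 40627 on PG-haESC and 4262 to 125163 on ICSI ESC arrays, highest on ICSI ESC replicate 1. The fibroblast arrays also carried high signals of 2 other cell types. Epidermal markers summed to 324440.0 and 327572 there, against 3294 to 3861 on PG-haESC and 3902 to 4978 on ICSI ESC arrays, and leukocyte markers to 19787 and 20835, against 713 to 1201 and 901 to 1031. The data thus go against the label in part, and these arrays are called fibroblast below only because the labels name them so. The 3′ to 5′ signal ratio of the actin control probes, which rises as RNA is degraded, was 2.92 to 4.96 on PG-haESC, 2.30 to 5.62 on ICSI ESC and 8.39 to 9.14 on fibroblast arrays. These marker sums and ratios separate the fibroblast arrays from all stem cell arrays in the way the proteasome genes do, and their part in the differences below was not tested. In bulk RNA, fewer cells of a type and less RNA per cell cannot be told apart.

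Proteasome genes were higher in both kinds of embryonic stem cell than on the fibroblast arrays, across the 20S core, the 19S particle and most assembly factors. In PG-haESCs, 27 of 31 tested genes were called higher and 0 lower (adjusted p under 0.05), a share of 87.1%, where 23.0% of all genes tested were called higher and 17.3% lower. In ICSI ESCs, 26 of 31 were called higher and 0 lower, a share of 83.9%, where 22.6% of all genes tested were called higher and 17.0% lower. The same 26 genes were higher in both comparisons, which share the fibroblast arrays. The median log2 change of the 31 genes was 1.15 in PG-haESCs and 1.13 in ICSI ESCs, beside 0.06 and 0.08 over all genes tested. Called genes changed by 0.52 to 2.16 on the log2 scale in PG-haESCs and by 0.67 to 2.04 in ICSI ESCs, and 20 and 21 of the 31 were at least 2-fold higher. The signals of PG-haESC and fibroblast arrays did not overlap for 29 genes, 27 above and 2 below, where 34.0% of all genes tested lay above and 30.2% below. For ICSI ESCs, 28 genes lay above and 2 below, where 36.7% and 32.7% of all genes tested did. Centring every array on its median moved the median log2 change over all probe sets up by 0.33 in PG-haESCs and 0.28 in ICSI ESCs, and raised the share of higher ones among all called probe sets to 63.7% and 61.6%, against 51.4% and 50.5% without it. It left 26 and 25 proteasome genes called, with medians of 1.47 and 1.42.

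**Figure D1:**
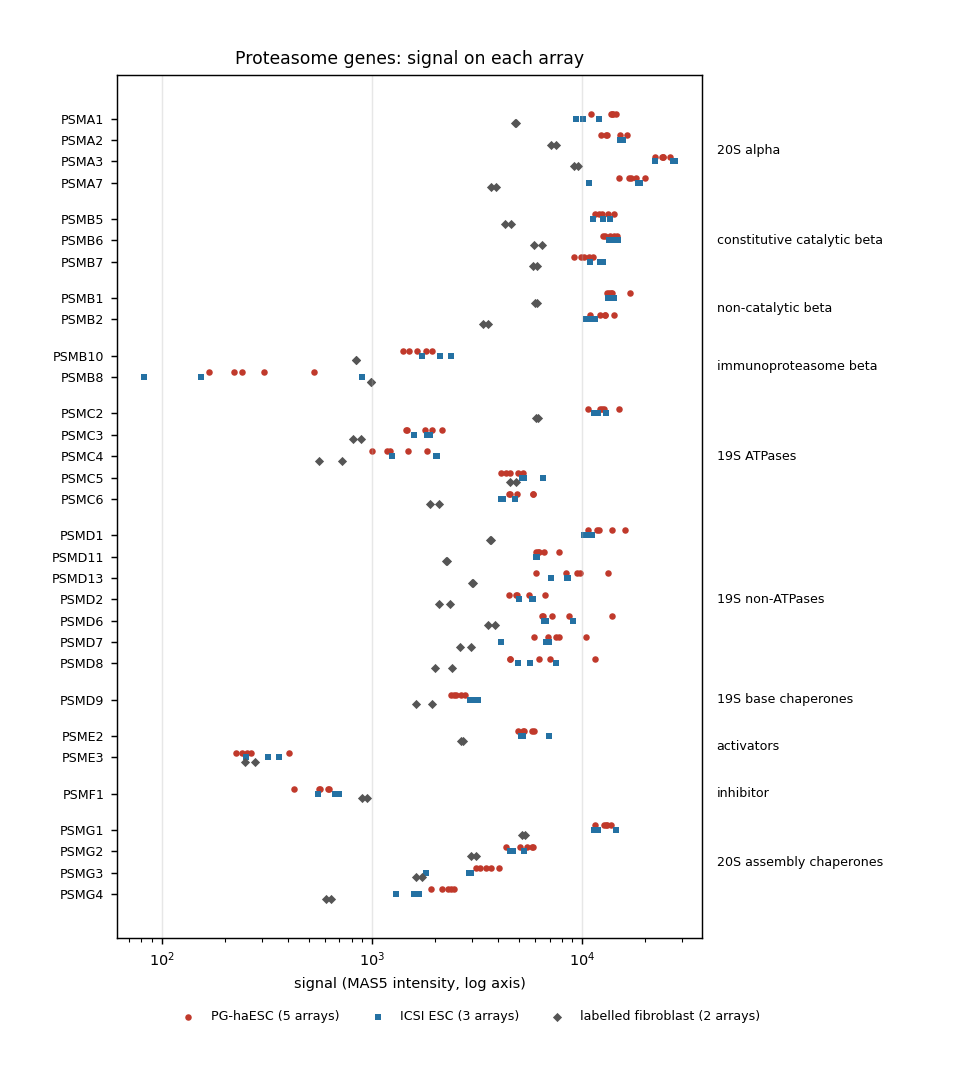
Signal (MAS5 intensity, log axis) of the 31 tested proteasome genes on every array, ordered by role, with PG-haESC arrays as red circles, ICSI ESC arrays as blue squares and fibroblast arrays as grey diamonds. Core and 19S genes other than PSMC5 lie to the right of both fibroblast points on all 8 stem cell arrays, and PSMB8 and PSMF1 lie to the left.

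Among the alpha subunits of the 20S core, all 4 tested genes rose in both stem cell groups, with a median log2 change of 1.40 in PG-haESCs and 1.28 in ICSI ESCs. PSMA7 had the largest called change of the probe sets used. Its signal was 19886, 18052, 17015, 16664 and 15042 on the 5 PG-haESC arrays, 10821, 18818 and 18495 on the 3 ICSI ESC arrays, against 3668 and 3907 on the fibroblast arrays. Every stem cell array exceeded both fibroblast arrays, and ICSI ESC replicate 1 was the lowest stem cell array. The log2 change was 2.16 ± 0.25 in PG-haESCs (adjusted p = 3.69e-05), a 4.47-fold difference, and 2.04 ± 0.25 in ICSI ESCs (adjusted p = 6.39e-05), a 4.11-fold difference. The probe set of PSMA7 that was brighter on the fibroblast arrays changed by less, 1.43 ± 0.17 (adjusted p = 5.72e-05) in PG-haESCs and 1.38 ± 0.17 (adjusted p = 8.18e-05) in ICSI ESCs, and was also called higher. Errors given after log2 changes are standard errors over 5, 3 and 2 arrays.

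PSMA3 was the brightest proteasome gene, with 24161, 26194, 24351, 22343 and 23970.3 on PG-haESC arrays, 22295, 27165 and 27809 on ICSI ESC arrays, against 9199 and 9614 on fibroblast arrays. PSMA3 changed by 1.36 ± 0.17 (adjusted p = 7.98e-05) on the log2 scale in PG-haESCs and by 1.45 ± 0.17 (adjusted p = 5.56e-05) in ICSI ESCs, so both stem cell groups stood apart from the fibroblast arrays by more than their spread. PSMA1 read 14088, 13679.9, 14471, 13863 and 11028 on PG-haESC arrays, 9394, 12005 and 10096 on ICSI ESC arrays, against 4779 and 4841 on fibroblast arrays. In PG-haESCs PSMA1 differed from the fibroblast arrays by 1.43 ± 0.18 log2 units (adjusted p = 7.91e-05), and in ICSI ESCs by 1.12 ± 0.18 (adjusted p = 5.29e-04). The stem cell groups of PSMA1 overlapped, since MPH2 fell below ICSI ESC replicate 2. PSMA2 rose by 0.97 (adjusted p = 0.00112) in PG-haESCs and by 1.07 (adjusted p = 5.86e-04) in ICSI ESCs on the log2 scale. A further PSMA2 probe set rose in both groups, by 1.29 (adjusted p = 1.92e-04) and 0.81 (adjusted p = 0.00512). Another was called in ICSI ESCs only, at 0.57 (adjusted p = 0.0322) against 0.45 (adjusted p = 0.0774) in PG-haESCs. The remaining PSMA2 probe sets were not called, at 0.01 and -0.05 in PG-haESCs and -0.01 and 0.01 in ICSI ESCs. The second PSMA1 probe set was not called either, at -0.05 (adjusted p = 0.926) and 0.38 (adjusted p = 0.391).

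The 3 constitutive cutting subunits rose together. PSMB5, the chymotrypsin-like site, read 14196, 13337, 12434, 11531 and 11981 on PG-haESC arrays, 11269.6, 12529 and 13634 on ICSI ESC arrays, against 4319 and 4575 on fibroblast arrays. Against the fibroblast arrays, PSMB5 changed by 1.50 ± 0.17 (adjusted p = 4.12e-05) in PG-haESCs and by 1.48 ± 0.18 (adjusted p = 4.97e-05) in ICSI ESCs on the log2 scale, and no stem cell array overlapped a fibroblast array. PSMB6, the caspase-like site, read 14682, 12587, 12838, 13648 and 14208 on PG-haESC arrays, 13483, 14108 and 14821 on ICSI ESC arrays, against 5895 and 6442 on fibroblast arrays. Its log2 change was 1.15 ± 0.16 (adjusted p = 1.75e-04) in PG-haESCs and 1.20 ± 0.16 (adjusted p = 1.43e-04) in ICSI ESCs.

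PSMB7, the trypsin-like site, had the smallest change of the 3. It read 11228, 10188, 9909, 9175 and 10779 on PG-haESC arrays, 10865, 12545 and 12191 on ICSI ESC arrays, against 5854 and 6077 on fibroblast arrays. PSMB7 changed by 0.79 ± 0.17 (adjusted p = 0.00305) on the log2 scale in PG-haESCs and by 0.99 ± 0.17 (adjusted p = 7.26e-04) in ICSI ESCs. With the arrays of 1 line averaged first, the PG-haESC change was 0.81 (adjusted p = 0.052) and missed the threshold. Of the structural beta subunits, both tested genes rose, and PSMB2 had the smallest p of all proteasome genes in both comparisons. PSMB2 read 12917, 14156, 12872, 12169.7 and 10892 on PG-haESC arrays, 10389.8, 10799.5 and 11507 on ICSI ESC arrays, against 3361 and 3558 on fibroblast arrays. In PG-haESCs PSMB2 differed from the fibroblast arrays by 1.83 ± 0.17 log2 units (adjusted p = 6.96e-06), and in ICSI ESCs by 1.65 ± 0.17 (adjusted p = 1.73e-05). PSMB1 rose by 1.22 (adjusted p = 2.12e-04) in PG-haESCs and by 1.20 (adjusted p = 2.66e-04) in ICSI ESCs on the log2 scale. As a group, all 9 tested genes of the constitutive 20S core were called higher in both stem cell groups, with median log2 changes of 1.36 in PG-haESCs and 1.20 in ICSI ESCs. With all probe sets of a gene averaged, PSMB1 was called in neither group, at 0.17 (adjusted p = 0.63) in PG-haESCs and 0.05 (adjusted p = 0.894) in ICSI ESCs, nor was PSMB2, at 0.63 (adjusted p = 0.501) and 0.93 (adjusted p = 0.307). The same averaging ended the ICSI ESC call of PSMA3, at 0.69 (adjusted p = 0.0815).

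**Figure D2:**
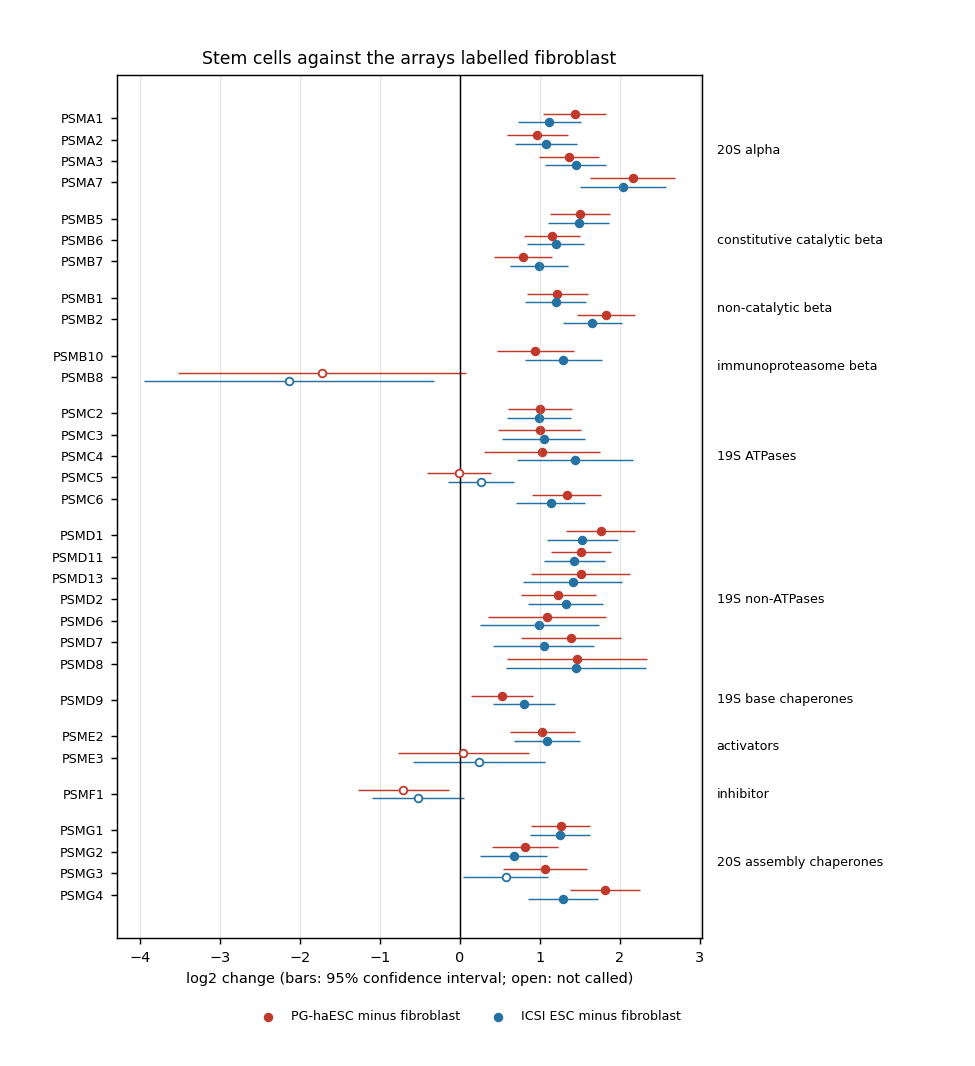
Change of each tested proteasome gene (log2 scale) in PG-haESCs (red, upper) and ICSI ESCs (blue, lower) against the fibroblast arrays, with 95% confidence intervals, and open points where the change was not called. All genes of the constitutive 20S core lie right of 0, while PSMB8 and PSMF1 lie left of it with open points.

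The immunoproteasome subunits did not move as a group. PSMB10, the interferon-induced counterpart of PSMB7, rose, and PSMB8, the counterpart of PSMB5, had lower signals in the stem cells without being called. PSMB10 read 1929.8, 1502, 1634, 1816 and 1409 on PG-haESC arrays, 1725, 2379.8 and 2114 on ICSI ESC arrays, against 839.9 and 836 on fibroblast arrays. Against the fibroblast arrays, PSMB10 changed by 0.94 ± 0.22 (adjusted p = 0.00584) in PG-haESCs and by 1.29 ± 0.22 (adjusted p = 7.95e-04) in ICSI ESCs on the log2 scale, with no overlap between stem cell and fibroblast arrays. A second PSMB10 probe set with lower signal changed by -0.33 ± 0.33 (adjusted p = 0.499) in PG-haESCs and by -0.04 ± 0.34 (adjusted p = 0.954) in ICSI ESCs, and neither change was called. The mean of both PSMB10 probe sets gave 0.30 (adjusted p = 0.311) in PG-haESCs, so that call rests on the brighter probe set. Averaging the arrays of 1 line first also ended it, at 0.89 (adjusted p = 0.0905).

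PSMB8 read 220.0, 307, 168, 241 and 531 on PG-haESC arrays, 896, 81.9 and 153 on ICSI ESC arrays, against 987 and 985 on fibroblast arrays. All 8 stem cell arrays lay below both fibroblast arrays, but the stem cell arrays spread widely: ICSI ESC replicate 1 came close to the fibroblast arrays, and MPH2 was the highest PG-haESC array. The log2 change was -1.72 ± 0.83 (adjusted p = 0.135, 95% confidence interval -3.53 to 0.08) in PG-haESCs and -2.14 ± 0.84 (adjusted p = 0.0688, 95% confidence interval -3.96 to -0.32) in ICSI ESCs. PSMB8 also had the largest spread of all proteasome genes among stem cell arrays, with an SD of 0.63 log2 units in PG-haESCs (n = 5) and 1.79 in ICSI ESCs (n = 3), where the median SD was 0.17 and 0.18. Without ICSI ESC replicate 1, PSMB8 was called lower in both comparisons, at -1.79 (adjusted p = 0.00715) in PG-haESCs and -3.14 (adjusted p = 5.28e-04) in ICSI ESCs. It was also called lower with all arrays taken as independent, at -1.87 (adjusted p = 0.0487) in PG-haESCs and -2.14 (adjusted p = 0.0431) in ICSI ESCs. A fit of the PG-haESC and fibroblast arrays alone likewise called it lower, at -1.81 (adjusted p = 0.0055). Over all alternatives its adjusted p ran from 0.0055 to 0.447 in PG-haESCs and from 5.28e-04 to 0.227 in ICSI ESCs.

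Set against its constitutive counterpart within each array, PSMB8 fell short of PSMB5 on every stem cell array. That sign was given in advance, because PSMB8 lay below and PSMB5 above both fibroblast arrays on all stem cell arrays. Part of each difference is the rise of PSMB5, so it is no further support for a lower PSMB8. Relative to the mean of the fibroblast arrays, the log2 difference PSMB8 minus PSMB5 was -3.84, -3.27, -4.04, -3.41 and -2.32 on PG-haESC arrays and -1.48, -5.09 and -4.30 on ICSI ESC arrays. The same difference for PSMB10 minus PSMB7 was 0.29, 0.07, 0.23, 0.50 and -0.10 on PG-haESC arrays and 0.18, 0.43 and 0.30 on ICSI ESC arrays, closer to the fibroblast mean than the PSMB8 difference on every array. In the RefSeq annotation of the assembly T2T-MFA8v1.1, PSMB8 lies in a row with PSMB9, TAP1 and TAP2. TAP1, a subunit of the transporter that carries peptides to MHC class I, read 290.2, 446, 259, 232 and 608 on PG-haESC arrays, 631, 201 and 225 on ICSI ESC arrays, against 1361 and 1260.1 on fibroblast arrays. As with PSMB8, ICSI ESC replicate 1 and MPH2 were its highest stem cell arrays. The log2 change of TAP1 was -1.81 ± 0.55 (adjusted p = 0.0225) in PG-haESCs and -2.10 ± 0.55 (adjusted p = 0.011) in ICSI ESCs. The PG-haESC call of TAP1 was lost without either fibroblast array, at -1.77 (adjusted p = 0.0776) and -1.88 (adjusted p = 0.0613). Averaging the arrays of 1 line first ended both calls of TAP1, with adjusted p = 0.168 in PG-haESCs and adjusted p = 0.0655 in ICSI ESCs.

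**Figure D3:**
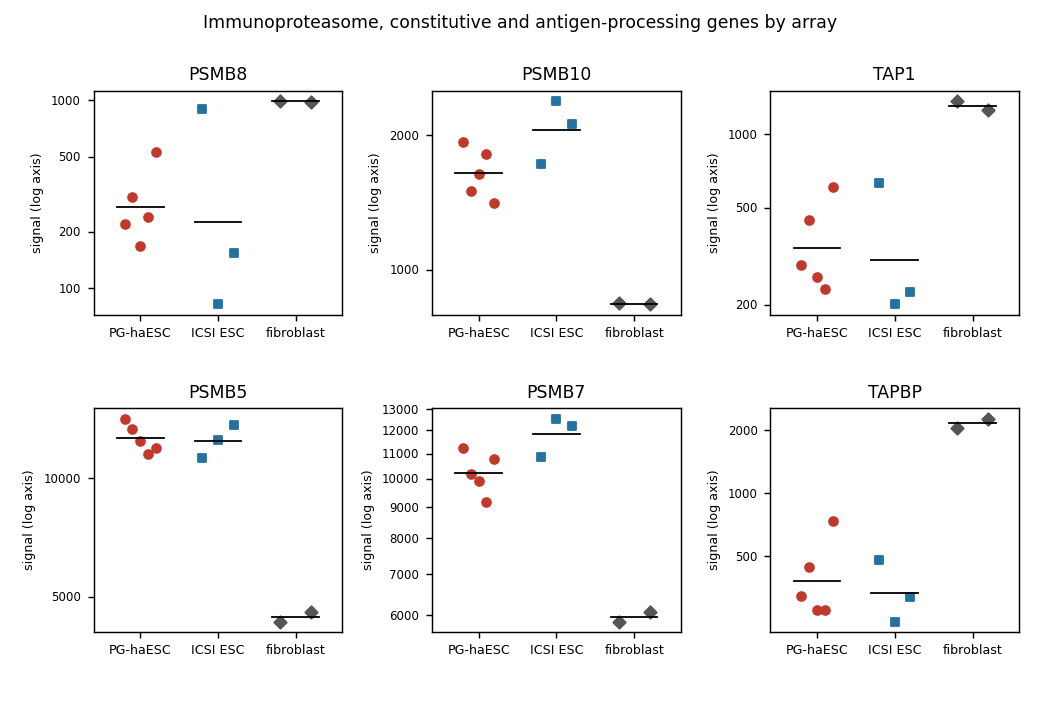
Signal on each array (log axes, a separate scale in each panel) of PSMB8, PSMB10, TAP1, PSMB5, PSMB7 and TAPBP in PG-haESC, ICSI ESC and fibroblast arrays, with horizontal lines at the geometric means. PSMB8, TAP1 and TAPBP are lower on all 8 stem cell arrays and PSMB10, PSMB5 and PSMB7 higher than on both fibroblast arrays.

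Of the 19S particle, 11 of 12 tested subunits were called higher in each stem cell group, with median log2 changes of 1.28 in PG-haESCs and 1.23 in ICSI ESCs. Among the ATPases, which form the unfolding ring, 4 of 5 rose. PSMC6 read 5855, 5824, 4926, 4551 and 4495 on PG-haESC arrays, 4190.0, 4134 and 4776 on ICSI ESC arrays, against 2091 and 1885 on fibroblast arrays. Its log2 change was 1.33 ± 0.20 (adjusted p = 2.46e-04) in PG-haESCs and 1.13 ± 0.20 (adjusted p = 8.63e-04) in ICSI ESCs, and all stem cell arrays lay above both fibroblast arrays. PSMC4 was dimmer and more variable, with 1477, 1837, 999, 1216 and 1177 on PG-haESC arrays, 2016, 2034 and 1245 on ICSI ESC arrays, against 719 and 562 on fibroblast arrays. PSMC4 changed by 1.02 ± 0.33 (adjusted p = 0.0324) on the log2 scale in PG-haESCs and by 1.44 ± 0.34 (adjusted p = 0.00564) in ICSI ESCs. The PG-haESC call of PSMC4 was lost without PG-haESC replicate 1 (adjusted p = 0.0588), PG-haESC replicate 2 (adjusted p = 0.0606) or fibroblast replicate 2 (adjusted p = 0.151).

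PSMC5 was the only tested 19S subunit not called in either comparison. It read 5215, 4550.4, 4104, 4329 and 4934 on PG-haESC arrays, 5167, 5320.1 and 6491 on ICSI ESC arrays, against 4553 and 4832 on fibroblast arrays. Its log2 change was -0.01 ± 0.19 (adjusted p = 0.975, 95% confidence interval -0.42 to 0.39) in PG-haESCs and 0.26 ± 0.19 (adjusted p = 0.322, 95% confidence interval -0.15 to 0.67) in ICSI ESCs. PG-haESC and fibroblast arrays of PSMC5 overlapped. Its second probe set gave 0.01 ± 0.21 (adjusted p = 0.97) in PG-haESCs and 0.16 ± 0.21 (adjusted p = 0.611) in ICSI ESCs, also not called. The other ATPases, PSMC2 and PSMC3, rose by 1.00 (adjusted p = 0.00114) and 1.00 (adjusted p = 0.00626) on the log2 scale in PG-haESCs, and by 0.99 (adjusted p = 0.00135) and 1.05 (adjusted p = 0.0048) in ICSI ESCs. With the arrays of 1 line averaged first, the PG-haESC calls of PSMC3, at 0.94 (adjusted p = 0.0631), and of PSMC4, at 0.99 (adjusted p = 0.11), were lost.

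All 7 tested non-ATPase subunits of the 19S particle were called higher, with median log2 changes of 1.47 in PG-haESCs and 1.41 in ICSI ESCs. PSMD1, a scaffold of the base, read 15988, 13875, 12103, 11798 and 10688 on PG-haESC arrays, 11179, 10198 and 10536 on ICSI ESC arrays, against 3695 and 3652 on fibroblast arrays. In PG-haESCs PSMD1 differed from the fibroblast arrays by 1.76 ± 0.20 log2 units (adjusted p = 3.65e-05), and in ICSI ESCs by 1.53 ± 0.20 (adjusted p = 1.14e-04). PSMD11, a lid subunit whose high level has been tied to high proteasome activity in human embryonic stem cells, read 6622, 7739, 6203, 6154 and 6048 on PG-haESC arrays, 6088, 6129 and 6058 on ICSI ESC arrays, against 2276 and 2241 on fibroblast arrays. Its 3 ICSI ESC arrays had the smallest spread of any proteasome gene in that group. The log2 change of PSMD11 was 1.51 ± 0.17 (adjusted p = 3.73e-05) in PG-haESCs and 1.43 ± 0.17 (adjusted p = 6.42e-05) in ICSI ESCs.

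PSMD7, the lid partner of the deubiquitinase PSMD14, read 10458, 6905, 7539, 7771 and 5904 on PG-haESC arrays, 4100.0, 6936 and 6722 on ICSI ESC arrays, against 2952 and 2622 on fibroblast arrays. Against the fibroblast arrays, PSMD7 changed by 1.39 ± 0.29 (adjusted p = 0.00267) in PG-haESCs and by 1.05 ± 0.29 (adjusted p = 0.015) in ICSI ESCs on the log2 scale, and the ICSI ESC call was lost without fibroblast replicate 2 (adjusted p = 0.0725). PSMD2, the other base scaffold, rose by 1.23 (adjusted p = 8.61e-04) in PG-haESCs and by 1.32 (adjusted p = 5.70e-04) in ICSI ESCs on the log2 scale. The lid subunit PSMD13 rose by 1.51 (adjusted p = 0.00136) in PG-haESCs and by 1.41 (adjusted p = 0.00227) in ICSI ESCs. PSMD6 and PSMD8, also of the lid, had the largest spread of this group over the PG-haESC arrays, and both were highest on PG-haESC replicate 2 among PG-haESC arrays, at 13813 and 11491, and on ICSI ESC replicate 1 among ICSI ESC arrays, at 9092 and 7518. PSMD8 changed by 1.47 ± 0.40 (adjusted p = 0.0137) in PG-haESCs and by 1.45 ± 0.40 (adjusted p = 0.0153) in ICSI ESCs, and both calls were lost without fibroblast replicate 1 (adjusted p = 0.0631 and adjusted p = 0.0708). PSMD6 changed by 1.09 ± 0.34 (adjusted p = 0.0269) in PG-haESCs and by 1.00 ± 0.34 (adjusted p = 0.0427) in ICSI ESCs. Its PG-haESC call was lost without PG-haESC replicate 1 (adjusted p = 0.0502), fibroblast replicate 1 (adjusted p = 0.0656) or fibroblast replicate 2 (adjusted p = 0.0906). Its ICSI ESC call was lost without PG-haESC replicate 1 (adjusted p = 0.0631), PG-haESC replicate 3 (adjusted p = 0.0581), ICSI ESC replicate 1 (adjusted p = 0.0618), ICSI ESC replicate 2 (adjusted p = 0.0531), ICSI ESC replicate 3 (adjusted p = 0.0629), fibroblast replicate 1 (adjusted p = 0.095) or fibroblast replicate 2 (adjusted p = 0.13). Both calls of PSMD6 were also lost with all its probe sets averaged, at 0.25 (adjusted p = 0.519) in PG-haESCs and 0.21 (adjusted p = 0.599) in ICSI ESCs. Averaging the arrays of 1 line first ended the PG-haESC call of PSMD6 (adjusted p = 0.0553) and the ICSI ESC call of PSMD7 (adjusted p = 0.0715).

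Of the proteasome regulators and assembly factors, 6 of 8 tested genes were called higher in PG-haESCs and 5 of 8 in ICSI ESCs, with median log2 changes of 0.92 and 0.74. PSME2, which with PSME1 forms the interferon-induced 11S activator, read 5247, 5929.8, 4941, 5268 and 5786 on PG-haESC arrays, 6963, 5124 and 5229 on ICSI ESC arrays, against 2659.5 and 2699 on fibroblast arrays. Its log2 change was 1.03 ± 0.19 (adjusted p = 0.00116) in PG-haESCs and 1.09 ± 0.19 (adjusted p = 8.49e-04) in ICSI ESCs, and no stem cell array overlapped a fibroblast array. Averaging all its probe sets ended both calls, at 0.64 (adjusted p = 0.421) in PG-haESCs and 1.27 (adjusted p = 0.097) in ICSI ESCs. PSME3, the nuclear 11S activator, read 225, 403, 254, 242 and 264 on PG-haESC arrays, 322, 252 and 362 on ICSI ESC arrays, against 249 and 276 on fibroblast arrays. Both stem cell groups of PSME3 overlapped the fibroblast arrays, with log2 changes of 0.04 ± 0.38 (adjusted p = 0.947) in PG-haESCs and 0.24 ± 0.38 (adjusted p = 0.688) in ICSI ESCs.

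PSMF1, which encodes the inhibitor PI31, was the other gene with lower signals in stem cells. It read 427, 559.5, 566, 626 and 615 on PG-haESC arrays, 699.9, 668 and 556 on ICSI ESC arrays, against 894 and 947 on fibroblast arrays. All 8 stem cell arrays lay below both fibroblast arrays. The log2 change was -0.71 ± 0.26 (adjusted p = 0.0542) in PG-haESCs and -0.53 ± 0.26 (adjusted p = 0.15) in ICSI ESCs, and neither passed the threshold. In PG-haESCs it was called lower under 7 of 25 alternatives, among them without PG-haESC replicate 5, at -0.77 (adjusted p = 0.0421), and without ICSI ESC replicate 1, at -0.72 (adjusted p = 0.023). A dimmer PSMF1 probe set was called lower in ICSI ESCs, at -1.24 (adjusted p = 0.046), but not in PG-haESCs, at -1.03 (adjusted p = 0.0896). Its remaining probe sets were not called, at 0.11 and -0.52 in PG-haESCs and -0.82 and -0.53 in ICSI ESCs.

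All 4 assembly chaperones of the 20S core rose in PG-haESCs and 3 of 4 in ICSI ESCs. PSMG4 had the largest change of them, with 2298, 2383, 2445, 2144 and 1911 on PG-haESC arrays, 1674, 1593 and 1294 on ICSI ESC arrays, against 635 and 601 on fibroblast arrays. PSMG4 changed by 1.82 ± 0.20 (adjusted p = 2.94e-05) on the log2 scale in PG-haESCs and by 1.29 ± 0.20 (adjusted p = 4.14e-04) in ICSI ESCs, and the 3 groups did not overlap. PSMG1, which pairs with PSMG2 to build the alpha ring, read 12970.2, 13211, 13787, 12687 and 11527 on PG-haESC arrays, 11393, 11876 and 14486 on ICSI ESC arrays, against 5325 and 5203 on fibroblast arrays. In PG-haESCs PSMG1 differed from the fibroblast arrays by 1.26 ± 0.17 log2 units (adjusted p = 1.27e-04), and in ICSI ESCs by 1.25 ± 0.17 (adjusted p = 1.52e-04). PSMG2 rose by 0.81 (adjusted p = 0.00595) in PG-haESCs and by 0.67 (adjusted p = 0.0178) in ICSI ESCs on the log2 scale. Its ICSI ESC call was lost without ICSI ESC replicate 2 (adjusted p = 0.0508), fibroblast replicate 1 (adjusted p = 0.084) or fibroblast replicate 2 (adjusted p = 0.0568). With all probe sets of a gene averaged, the PG-haESC calls of PSMG1, at 0.87 (adjusted p = 0.28), and of PSMG2, at 0.14 (adjusted p = 0.787), were lost, as were the ICSI ESC calls of PSMG2, at 0.44 (adjusted p = 0.318), and of PSMG4, at 0.35 (adjusted p = 0.369). With the arrays of 1 line averaged first, PSMG2 was called in neither group (adjusted p = 0.055 in PG-haESCs and adjusted p = 0.0822 in ICSI ESCs).

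PSMG3, the partner of PSMG4, read 3666, 3281, 4021, 3111 and 3492 on PG-haESC arrays, 1806, 2968 and 2883 on ICSI ESC arrays, against 1738 and 1617 on fibroblast arrays. ICSI ESC replicate 1 lay close to the fibroblast arrays. The log2 change of PSMG3 was 1.06 ± 0.24 (adjusted p = 0.00472) in PG-haESCs and 0.57 ± 0.24 (adjusted p = 0.0923) in ICSI ESCs. Without ICSI ESC replicate 1 the ICSI ESC change was 0.80 (adjusted p = 0.00383) and was called. The PG-haESC call of PSMG3 was lost with all its probe sets averaged, at 0.0017 (adjusted p = 0.999), and with the arrays of 1 line averaged first, at 1.06 (adjusted p = 0.0743). PSMD9, a chaperone of the 19S base, had the smallest called change. It read 2519.9, 2763, 2663, 2367 and 2458 on PG-haESC arrays, 2919.7, 3104 and 3186 on ICSI ESC arrays, against 1617 and 1923 on fibroblast arrays. Against the fibroblast arrays, PSMD9 changed by 0.52 ± 0.18 (adjusted p = 0.0383) in PG-haESCs and by 0.80 ± 0.18 (adjusted p = 0.00435) in ICSI ESCs on the log2 scale. The PG-haESC call was lost without PG-haESC replicates 1, 2 or 3, ICSI ESC replicate 3, fibroblast replicate 1 or fibroblast replicate 2, with adjusted p between 0.05 and 0.225. Averaging the arrays of 1 line first also ended it (adjusted p = 0.206). Another PSMD9 probe set was called lower, at -1.05 ± 0.23 (adjusted p = 0.00357) in PG-haESCs and -1.05 ± 0.23 (adjusted p = 0.00362) in ICSI ESCs, so the direction of PSMD9 is not settled by these arrays.

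Other probe sets of the called genes gave fewer calls. In PG-haESCs, 17 of the 27 called genes had another tested probe set, 24 in all, of which 6 were called higher, 1 lower and 17 not called, where 17.0% of all probe sets tested were called higher and 16.0% lower. In ICSI ESCs, 16 of the 26 called genes had 23 others, of which 8 were called higher, 1 lower and 14 not called, where 16.5% of all probe sets tested were called higher and 16.2% lower. The calls fell on the brighter ones. Of the other probe sets with a mean log2 signal above 10, a limit chosen after their values were seen, 6 of 10 were higher in PG-haESCs and 7 of 10 in ICSI ESCs, and of the dimmer ones 0 of 14 and 1 of 13. With all probe sets of a gene averaged, 18 proteasome genes were called in each comparison, in place of 27 and 26. That averaging tested 27902 entries, which were genes or probe sets that name no single gene. Of these, 8311 were called in PG-haESCs, 4018 of them higher, and 8012 in ICSI ESCs, 3832 of them higher.

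**Figure D4:**
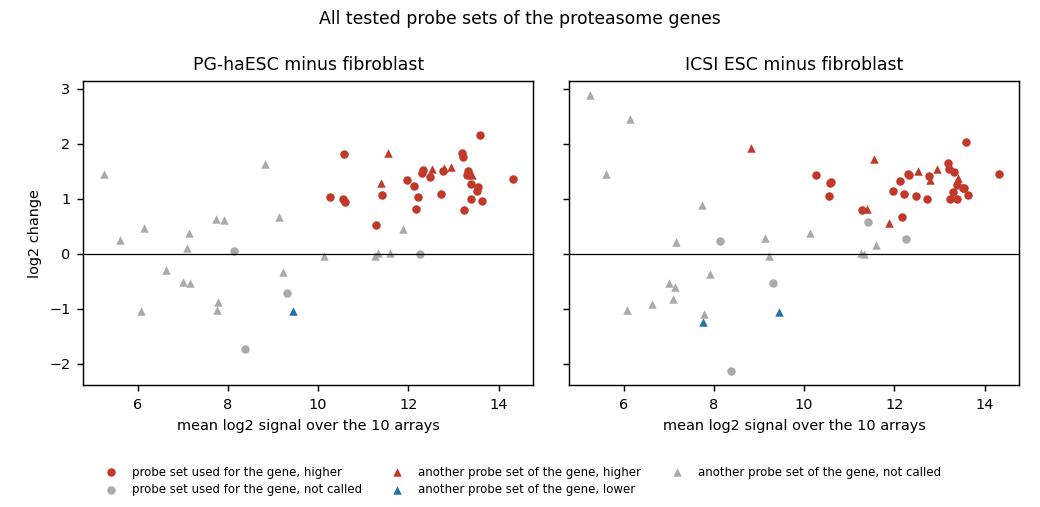
Log2 change of every tested probe set of the proteasome genes against its mean log2 signal over the 10 arrays, in PG-haESCs (left) and ICSI ESCs (right) relative to the fibroblast arrays. Circles are the probe sets used for the genes and triangles their other probe sets, with red for higher, blue for lower and grey for not called, and the red points lie at higher signals.

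No proteasome gene was called between the 2 kinds of stem cell. Between PG-haESCs and ICSI ESCs, 0 of 31 genes were called by limma, where 0.576% of all genes tested were called, and 2 had an unadjusted p under 0.05. The median log2 change was 0.01, beside -0.02 over all genes tested. For 29 of 31 genes the 95% confidence interval lay within 1 log2 unit of 0 on either side, and the exceptions were PSMB8, with 0.42 (-1.07 to 1.90), and PSMC4, with -0.42 (-1.01 to 0.18). Changes smaller than these intervals cannot be told from 0 with 5 and 3 arrays. For the cutting subunits, the change was 0.01 (-0.30 to 0.32) for PSMB5, -0.05 (-0.34 to 0.24) for PSMB6 and -0.20 (-0.50 to 0.10) for PSMB7. PSMB10, with -0.35 (-0.75 to 0.04, adjusted p = 0.77), averaged lower in PG-haESCs, but its arrays overlapped.

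The chaperone pair PSMG3 and PSMG4 came closest to a difference. Their PG-haESC arrays lay above all ICSI ESC arrays, which made 2 of 31 proteasome genes, near the 5.07% of all genes tested that did so. The log2 change was 0.53 ± 0.17 for PSMG4 (adjusted p = 0.319, 95% confidence interval 0.17 to 0.89) and 0.49 ± 0.20 for PSMG3 (adjusted p = 0.572, 95% confidence interval 0.06 to 0.92). Their dimmer probe sets gave 0.96 (adjusted p = 0.584) for PSMG4 and -0.01 (adjusted p = 0.999) for PSMG3. PSMD9 lay below all ICSI ESC arrays on every PG-haESC array, where 3.22% of all genes tested did so, with a log2 change of -0.27 ± 0.15 (adjusted p = 0.789). No other proteasome gene separated the stem cell groups. PSMA1, with 0.32 ± 0.15 (adjusted p = 0.7), PSMD7, with 0.34 ± 0.24 (adjusted p = 0.9), PSMB2, with 0.18 ± 0.14 (adjusted p = 0.926), and PSMC5, with -0.27 ± 0.15 (adjusted p = 0.816), had overlapping arrays.

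**Figure D5:**
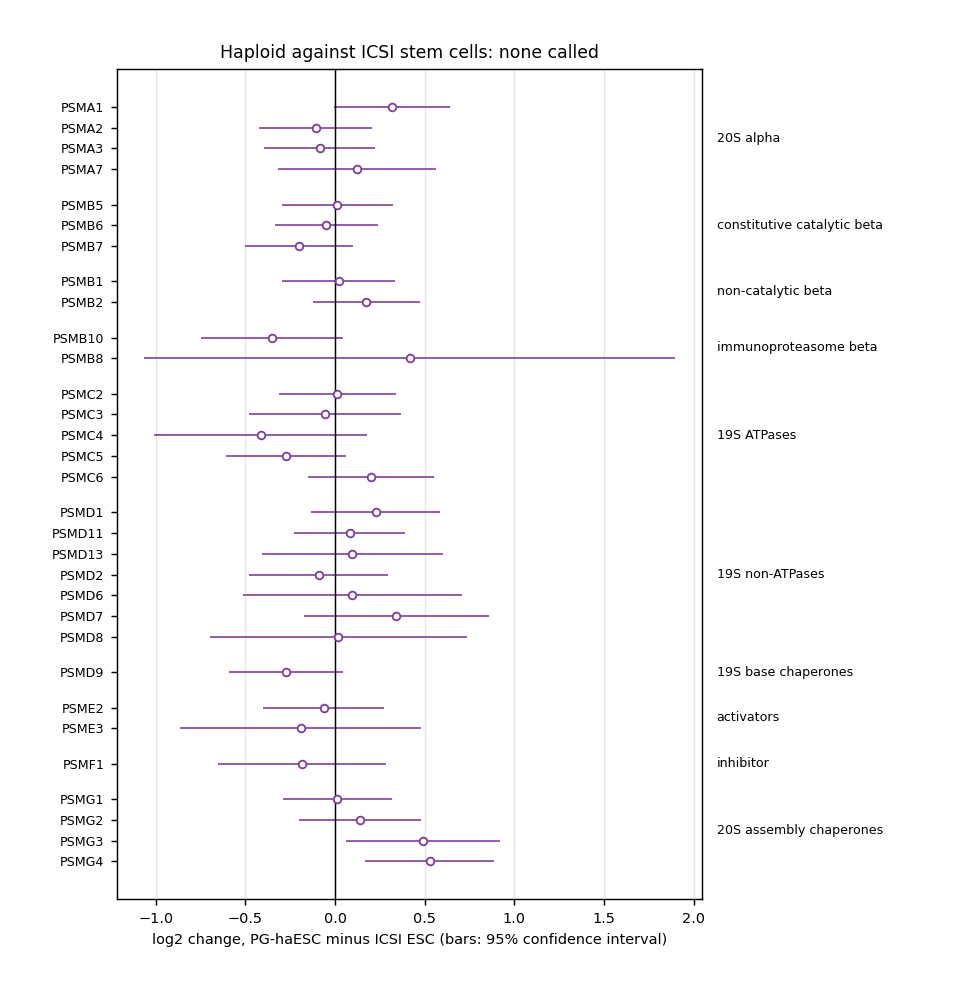
Log2 change of each tested proteasome gene in PG-haESCs against ICSI ESCs, with 95% confidence intervals, ordered by role. All points are open because none was called, and only the intervals of PSMG4 and PSMG3 leave out 0.

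Within the stem cell groups the proteasome genes had a median SD of 0.17 log2 units over the 5 PG-haESC arrays and 0.18 over the 3 ICSI ESC arrays. These values were not set against genes of like brightness. Most of the highest PG-haESC values came from 2 arrays: replicate 1 was highest for 12 of 31 genes and replicate 2 for 11, while MPH2 (replicate 5) was lowest for 12. ICSI ESC replicate 1 was the lowest ICSI ESC array for 17 of 31 genes. PG-haESC replicate 2 and ICSI ESC replicate 1 also had the highest spike-in control signals, with mean log2 signals of 13.6 and 13.3, where the other arrays had 12.1 to 12.8. Without these 2 arrays, an alternative chosen after seeing the data, 29 proteasome genes were called in PG-haESCs and 28 in ICSI ESCs, in either direction. Among them, PSMB8 was called lower in both, at -1.79 (adjusted p = 0.0145) in PG-haESCs and -3.14 (adjusted p = 0.00109) in ICSI ESCs. PSMF1 was called lower in PG-haESCs, at -0.72 (adjusted p = 0.0424). Of 32662 probe sets tested without these arrays, 13592 were called in PG-haESCs and 12930 in ICSI ESCs. The median of the 31 genes relative to the fibroblast mean was 1.06 to 1.33 log2 units on each PG-haESC array and 1.11 to 1.18 on each ICSI ESC array, and 27 to 28 and 28 to 29 of the 31 genes lay above both fibroblast arrays on each. The share of all genes tested that did so on a single array was not computed, so no result is drawn from these counts.

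Genes that work with the proteasome but fall outside the symbol rule were counted from lists. Of 7 tested proteasome partners, 5 were called higher and 1 lower in PG-haESCs, and 4 higher and 1 lower in ICSI ESCs, where 23.0% of all genes tested were called higher and 17.3% lower in PG-haESCs, and 22.6% and 17.0% in ICSI ESCs. The 1 called lower was USP14. SEM1, a small 19S subunit, rose by 1.29 (adjusted p = 1.12e-04) in PG-haESCs and by 1.14 (adjusted p = 3.07e-04) in ICSI ESCs on the log2 scale. AKIRIN2, which brings proteasomes into the nucleus in human cells, rose by 1.31 (adjusted p = 3.60e-04) in PG-haESCs and by 1.38 (adjusted p = 2.70e-04) in ICSI ESCs. UCHL5, a deubiquitinase of the 19S base, rose by 0.78 (adjusted p = 0.00291) in PG-haESCs and by 1.16 (adjusted p = 2.03e-04) in ICSI ESCs. These 3 partners were called higher in both comparisons, but the PG-haESC call of UCHL5 was lost with the arrays of 1 line averaged first (adjusted p = 0.0554).

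The brightest probe set annotated as USP14, another 19S deubiquitinase, exceeded the array's median on the fibroblast arrays only. It read between 7.18 and 34.0 on PG-haESC arrays and between 12.7 and 18.6 on ICSI ESC arrays, below the array's median on all 8, against 33364 and 33353 on the fibroblast arrays. Taking the array medians as the stem cell level, the signal was lower by at least 354-fold in PG-haESCs and by at least 351-fold in ICSI ESCs. It entered the test only through the 2 fibroblast arrays where it was high, so it had to differ, and its calls are not counted as support. Whether the 5 probe sets with this symbol report USP14 transcripts was not tested.

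Of 6 tested regulators of proteasome genes, 1 was called higher and 0 lower in each stem cell group, a share under the 23.0% and 22.6% of all genes tested that were called higher in PG-haESCs and in ICSI ESCs. It was NFE2L2, the oxidative-stress factor NRF2, which read 11687, 10796, 11043, 11756 and 9551 on PG-haESC arrays, 9643, 11209 and 12425 on ICSI ESC arrays, against 3576 and 3540.1 on fibroblast arrays. Its log2 change was 1.59 ± 0.17 (adjusted p = 2.69e-05) in PG-haESCs and 1.63 ± 0.18 (adjusted p = 2.53e-05) in ICSI ESCs. The mean of all its probe sets ended both calls, with adjusted p = 0.631 and adjusted p = 0.116. Its probe set that was brightest on the fibroblast arrays went the other way, at -0.91 (adjusted p = 0.0219) in PG-haESCs and -0.71 (adjusted p = 0.0634) in ICSI ESCs, so the direction of NFE2L2 is not settled by these arrays. The interferon-responsive activators of the immunoproteasome genes were not called: IRF1 changed by -1.27 ± 0.68 (adjusted p = 0.181) in PG-haESCs and by -0.80 ± 0.69 (adjusted p = 0.421) in ICSI ESCs, and NLRC5 by -2.29 ± 1.04 (adjusted p = 0.114) and -2.04 ± 1.05 (adjusted p = 0.161). IRF1 read 112, 299.6, 140.1, 109 and 477 on PG-haESC arrays, 484, 181 and 313 on ICSI ESC arrays, against 579.8 and 473 on fibroblast arrays, and its highest stem cell arrays were ICSI ESC replicate 1 and MPH2, as for PSMB8 and TAP1.

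Of 6 tested genes that charge ubiquitin or deliver substrates, 3 were called higher in PG-haESCs and 2 in ICSI ESCs. Of all genes tested, 23.0% and 22.6% were called higher in these comparisons. UBA1, the main ubiquitin-activating enzyme, rose by 1.33 (adjusted p = 0.0045) in PG-haESCs and by 0.95 (adjusted p = 0.0288) in ICSI ESCs on the log2 scale, and RAD23B, a shuttle factor, by 0.81 (adjusted p = 0.00535) and 1.08 (adjusted p = 8.72e-04). With the arrays of 1 line averaged first, the PG-haESC call of RAD23B (adjusted p = 0.0641) and the ICSI ESC call of UBA1 (adjusted p = 0.0784) were lost. That of UBA1 was also lost without ICSI ESC replicate 3 (adjusted p = 0.0507), fibroblast replicate 1 (adjusted p = 0.086) or fibroblast replicate 2 (adjusted p = 0.0921). UBQLN2, a shuttle factor whose gene is on the X chromosome, was the single gene of these lists called between the stem cell groups. It read 6197, 7877, 6414, 5982 and 6498 on PG-haESC arrays, 4265, 2661 and 2954 on ICSI ESC arrays, against 3176 and 3269.6 on fibroblast arrays. The log2 change in PG-haESCs was 1.02 ± 0.19 against ICSI ESCs (adjusted p = 0.0398), a call that was lost under 16 of 25 alternatives, and 1.02 ± 0.23 against fibroblast arrays (adjusted p = 0.00413). The change against fibroblast arrays was not called with the arrays of 1 line averaged first (adjusted p = 0.0659).

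Antigen-processing genes downstream of the proteasome were lower in stem cells where they were called: 0 of 6 tested genes rose and 3 fell in each group, where 17.3% of all genes tested fell in PG-haESCs and 17.0% in ICSI ESCs. Their summed signal was 25857 to 39015 on PG-haESC arrays and 24066 to 68524 on ICSI ESC arrays, against 49488 to 50849 on fibroblast arrays, and ICSI ESC replicate 1 lay above both fibroblast arrays. TAPBP, the tapasin that loads MHC class I, fell to 324, 443, 276, 278 and 739.5 on PG-haESC arrays and 482, 244 and 321 on ICSI ESC arrays, against 2041 and 2272 on fibroblast arrays. TAPBP changed by -2.35 ± 0.44 (adjusted p = 0.0014) on the log2 scale in PG-haESCs and by -2.68 ± 0.45 (adjusted p = 6.27e-04) in ICSI ESCs. ERAP1, the peptide-trimming protease, changed by -1.36 ± 0.34 (adjusted p = 0.00882) in PG-haESCs and by -1.61 ± 0.35 (adjusted p = 0.00334) in ICSI ESCs, and both calls were lost with arrays centred on their medians (adjusted p = 0.17 and adjusted p = 0.0944). Its PG-haESC call was also lost with the arrays of 1 line averaged first (adjusted p = 0.11). Of 12 tested interferon-inducible genes, 1 was called higher and 4 lower in PG-haESCs, and 0 higher and 4 lower in ICSI ESCs, where 23.0% and 17.3% of all genes tested were called higher and lower in PG-haESCs and 22.6% and 17.0% in ICSI ESCs. The 1 called higher was IFIT2, at 1.34 (adjusted p = 0.0017) in PG-haESCs, with 0.73 (adjusted p = 0.05002, not called) in ICSI ESCs. That call was lost with all IFIT2 probe sets averaged, at -0.02 (adjusted p = 0.982). IFIT3 changed by -3.20 ± 0.70 (adjusted p = 0.00389) in PG-haESCs and by -3.44 ± 0.71 (adjusted p = 0.00259) in ICSI ESCs. The PG-haESC call of IFIT3 was lost with the arrays of 1 line averaged first, at -2.85 (adjusted p = 0.0786), and with all its probe sets averaged, at -2.13 (adjusted p = 0.0557). The summed signal of the interferon-inducible list was 7825 to 10277 on PG-haESC arrays, 6159 to 13927 on ICSI ESC arrays, highest on replicate 1, and 9830.1 to 10094 on fibroblast arrays.

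PSMC3IP, the gene that matches the rule without being a proteasome gene, changed by 0.25 ± 0.25 (adjusted p = 0.501) in PG-haESCs and by 0.71 ± 0.25 (adjusted p = 0.0465) in ICSI ESCs. On the probe set used, its PG-haESC arrays overlapped the fibroblast arrays, unlike those of 29 of the 31 proteasome genes. A dimmer PSMC3IP probe set was called higher in PG-haESCs, at 1.15 (adjusted p = 0.0311), with all PG-haESC arrays above both fibroblast arrays. Another was called higher in ICSI ESCs, at 0.94 (adjusted p = 0.00615), and the rest were called in neither comparison.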

How the data were processed

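The deposited values are linear signal intensity per probe set, which the authors made with MAS5, per the submitters' processing notes. Its version was not stated, and no detection calls were used. The number of arrays (5, 3 and 2) limits the precision. Of 52865 probe sets, 158 were controls, and the 34139 that exceeded the array median on 2 or more arrays were tested. The supplied annotation gave 1 symbol to 24956 probe sets, several to 361 and none to 27390. RefSeq (T2T-MFA8v1.1) gave chromosomes and gene neighbours.

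Log2 signals of all 10 arrays were fitted together in limma 3.58.1 (R 4.3.3). The model had a mean for each group and treated line as a random block, with a correlation of 0.286. The variance was allowed to follow intensity, with 7 residual and 5.37 prior degrees of freedom, and tests were two-sided. Because lines are weighted, log2 changes can depart from ratios of group means. P-values were adjusted by Benjamini-Hochberg over all probe sets tested, and adjusted p under 0.05 was called. The fit was tested on simulated data. Tables and figures used Python 3.11.15, pandas 2.3.3 and matplotlib 3.10.9.

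Members and lists were chosen with earlier results of these data known. Per-array values are given for the cutting subunits, activators and inhibitor and for the member of each role with the smallest p or the largest change. Genes outside the rule are named where they were among the 4 smallest p of their list. The marker lists were pluripotent (7 tested, all 7 higher in both stem cell groups), fibroblast (9 tested, 2 lower in PG-haESCs and 3 in ICSI ESCs), epidermal (9 tested, all 9 lower in both, 6 of them tested only because the fibroblast arrays were high) and leukocyte (8 tested, 7 lower in PG-haESCs and 8 in ICSI ESCs, 3 of them tested only for that reason). Of the pluripotent markers, 5 lay below the array median on both fibroblast arrays and were tested only because stem cell arrays were high. Alternatives changed the block, offset, normalization, filter, variance model, choice of probe set and arrays included.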

Additional observations from a re-analysis of the deposited data

Results flagged for a closer look

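Among the 5 PG-haESC arrays, a gap test on each of the 31 proteasome genes found 3 with 1 array far from the rest, where chance alone marks about 1 group in 20. That rate takes the 5 arrays as alike, while 4 are of line MPH1 and 1 of MPH2. The share of all genes tested that this test marks was not computed, so no result about proteasome genes is drawn from it. PSMA1 was low on replicate 5 (MPH2), at 11028, where the other arrays had 13679.9 to 14471. PSMB1 was high on replicate 1, at 16997, where the other arrays had 13109.8 to 13955. PSME3 was high on replicate 2, at 403, where the other arrays had 225 to 264. No proteasome gene was called for a difference in change between PG-haESCs and ICSI ESCs.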

How the results depend on the processing

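The number of proteasome genes called stayed between 24 and 29 in PG-haESCs and between 23 and 27 in ICSI ESCs when each array was left out in turn, between 18 and 29 and between 18 and 28 under the other alternatives, and was 0 between PG-haESCs and ICSI ESCs under all of them. The lowest counts came from averaging all probe sets of a gene (18 in each) and, in PG-haESCs, from averaging the arrays of 1 line first. Averaging by line leaves 1 value per line, so 1 for the fibroblast arrays. The cause was not tested for either drop. Of the genes called, 14 of 27 in PG-haESCs and 16 of 26 in ICSI ESCs were called under every alternative. No called change of a proteasome gene turned its sign. The counts under the alternatives take both directions, with at most 2 genes called lower in PG-haESCs and 1 in ICSI ESCs. In PG-haESCs the main fit called 11275 of 34139 probe sets. Without ICSI ESC replicate 1, where PSMB8 and PSMF1 were called lower, 14024 of 33477 were called. Without the intensity trend in the variance, the PG-haESC calls of PSMC4, PSMD6, PSMD9 and TAP1 and the ICSI ESC calls of PSMD6, PSMD7, PSMG2 and UBA1 were lost. Centring the arrays ended those of PSMD9 in PG-haESCs and PSMG2 in ICSI ESCs, and quantile normalization both of PSMD6. Outside the rule, IFIT2 (1.34, adjusted p = 0.0017, in PG-haESCs) became -0.017 (adjusted p = 0.982) with all its probe sets averaged, and NFE2L2 became -0.91 (adjusted p = 0.0219) in PG-haESCs and -0.71 (adjusted p = 0.0634) in ICSI ESCs with the probe set brightest on the fibroblast arrays; the cause was not tested. That choice of probe set and the one by the mean of the 3 group means were added after seeing the data, and each left 27 and 26 proteasome genes called. Quantile normalization moved the median of all probe sets by 0.23 in PG-haESCs and 0.21 in ICSI ESCs and left 26 and 25 genes called, with medians of 1.09 and 0.94. Between PG-haESCs and ICSI ESCs, 154 probe sets were called, 81.2% of them higher, and 14 after centring, 21.4% of them higher. The fit of ICSI ESC and fibroblast arrays alone was not run, because no line correlation could be estimated from them. No paired analysis was possible because the same replicate number names different lines in each group. Signals below the array medians, such as those of PSMB11, have no order here, and with 2 fibroblast arrays small changes such as that of PSMD9 rest on single arrays.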
